A study of Mus musculus with 25 samples.

Results

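Small nucleolar RNAs (snoRNAs) were examined in bulk RNA sequencing of 25 mouse melanomas. Members were the rows of the deposited count table whose symbol starts with Snora or Snord and whose counts summed to at least 25 over the 25 tumours. This rule gave 68 members of 55450 rows: 33 of the H/ACA class (Snora symbols) and 35 of the C/D class (Snord symbols). The table holds 141 rows with such symbols, 42 Snora and 99 Snord. The tumours grew from B2905 cells, a melanoma line also called M4, implanted in C57BL/6 mice. All 25 mice received an antibody at 10 mg/kg, 2 doses a week for 2 weeks, starting at an average tumour volume of 75 mm3. In 20 of them it was directed at CTLA-4, which holds back T cell activation, and in the 5 controls it was an isotype IgG2b antibody. The 20 anti-CTLA-4 tumours were named by their size over the 10 to 11 days after the last dose: 8 responders (smaller), 6 stable and 6 non-responders (larger). These outcome groups were therefore not assigned by treatment, every tumour comes from 1 cell line, and the labels name neither age nor sex of the mice. The labels name a total RNA library kit but give the molecule as polyA RNA, and which of these was sequenced was not resolved. Most snoRNAs carry no poly(A) tail.

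SnoRNAs are short RNAs of the nucleolus that pair with other RNAs, mostly ribosomal RNA (rRNA), and direct their chemical modification. C/D snoRNAs carry a C box near the 5′ end and a D box near the 3′ end, bind fibrillarin (Fbl), Nop56, Nop58 and Snu13, and guide ribose methylation. H/ACA snoRNAs fold into hairpins followed by an ACA box, bind dyskerin (Dkc1), Nhp2, Nop10 and Gar1, and guide the conversion of uridine to pseudouridine. Most mammalian snoRNAs are cut from the introns of a host gene, often one for a ribosomal protein, and a few of them act in the cleavage of the rRNA precursor.

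The following sequences are shown because they carry most of the counts of their class or the widest differences between groups. They were read 5′ to 3′ on the transcribed strand from the GENCODE M21 transcripts for GRCm38 (mm10), with the boxes found by motif search in capitals. The C/D members shown are Snord17 (chr2:144265979-144266216, minus strand, in an intron of Snx5), Snord15b (chr7:99479563-99479707, minus strand, in Rps3), Snord22 (chr19:8725866-8725991, plus strand, in the non-coding gene Snhg1) and Snord14d (chr9:40803995-40804080, plus strand, in Hspa8). Capitals mark the C box TGATGA and the D box CTGA.
Snord17: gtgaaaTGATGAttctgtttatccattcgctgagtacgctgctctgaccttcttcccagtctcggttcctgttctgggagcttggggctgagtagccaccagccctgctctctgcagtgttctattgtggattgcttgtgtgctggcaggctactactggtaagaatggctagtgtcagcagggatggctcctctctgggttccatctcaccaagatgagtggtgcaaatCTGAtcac
Snord15b: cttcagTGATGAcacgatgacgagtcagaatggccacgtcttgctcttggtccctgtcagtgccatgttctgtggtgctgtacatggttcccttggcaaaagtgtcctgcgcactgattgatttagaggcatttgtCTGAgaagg
Snord22: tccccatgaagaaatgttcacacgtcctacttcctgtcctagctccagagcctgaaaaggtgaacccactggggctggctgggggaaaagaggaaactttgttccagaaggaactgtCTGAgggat
Snord14d: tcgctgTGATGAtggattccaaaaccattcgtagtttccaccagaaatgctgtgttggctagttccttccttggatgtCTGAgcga
The H/ACA members shown are Snora73a (chr4:132352775-132352979) and Snora73b (chr4:132352322-132352526), both on the minus strand in Snhg3, Snora23 (chr7:110046364-110046547, plus strand, in an intron of Ipo7), Snora81 (chr16:23110756-23110933, plus strand, in Eif4a2), Snora78 (chr17:24719676-24719803, minus strand, in Snhg9) and Snora33 (chr10:23785347-23785475, minus strand, in Rps12). Capitals mark the ACA box.
Snora73a: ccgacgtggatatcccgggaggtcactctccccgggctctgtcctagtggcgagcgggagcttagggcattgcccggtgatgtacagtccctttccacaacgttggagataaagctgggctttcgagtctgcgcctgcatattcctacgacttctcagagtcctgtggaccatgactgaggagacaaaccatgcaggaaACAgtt
Snora73b: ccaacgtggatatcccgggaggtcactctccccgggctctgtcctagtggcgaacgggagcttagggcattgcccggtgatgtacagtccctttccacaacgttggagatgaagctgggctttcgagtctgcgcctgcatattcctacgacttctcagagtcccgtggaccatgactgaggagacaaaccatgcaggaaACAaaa
Snora23: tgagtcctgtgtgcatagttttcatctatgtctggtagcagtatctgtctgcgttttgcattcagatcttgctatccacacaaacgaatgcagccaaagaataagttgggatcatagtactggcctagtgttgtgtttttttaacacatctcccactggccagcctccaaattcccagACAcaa
Snora81: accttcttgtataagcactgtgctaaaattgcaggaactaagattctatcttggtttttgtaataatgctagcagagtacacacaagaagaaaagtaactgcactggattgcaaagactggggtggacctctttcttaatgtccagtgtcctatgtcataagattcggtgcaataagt
Snora78: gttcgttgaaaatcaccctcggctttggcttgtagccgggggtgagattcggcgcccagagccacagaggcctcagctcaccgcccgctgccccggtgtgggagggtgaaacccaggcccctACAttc
Snora33: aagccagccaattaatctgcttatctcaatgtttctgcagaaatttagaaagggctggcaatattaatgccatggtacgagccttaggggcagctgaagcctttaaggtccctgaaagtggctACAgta

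The letters TGATGA stood within the first 25 bases of 29 of 35 C/D members and 0 of 33 H/ACA members, against 0.51% of 58797 protein-coding transcripts searched in the same window of the sense strand. The letters CTGA stood within the last 12 bases of 32 C/D and 3 H/ACA members, against 5.84% of those transcripts. The letters ACA stood 6 to 4 bases from the 3′ end of 26 H/ACA members and 0 C/D members, against 2.37%. The class names given by the symbols therefore went with the boxes that define the classes in most members. Snord22 lacked the exact C box letters and Snora81 lacked the ACA at that place. H/ACA members were 121 to 205 nt long (median 134) and C/D members 68 to 238 nt (median 86). Snora73a and Snora73b differ by 7 edits (96.6% identity) and Snord14c and Snord14d by 2 edits (97.7%), so the split of reads within each pair is uncertain.

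Membership followed length within the C/D class. Of the 87 annotated C/D rows of 60 to 99 nt, 25 were members (28.7%), against 9 of the 11 rows of 100 to 149 nt. In the H/ACA class, 28 of 37 rows of 100 to 149 nt were members. The Snord113 to Snord116 rows, copies of the imprinted clusters known for expression in brain, were 17 in number and summed to 1 count in all 25 tumours. The rule was close to its threshold for Snord110 (27 counts), Snord50a (27.3) and Snord68 (27.65) inside it, and for Snord60 (22.86), Snord57 (21.94) and Snora41 (17) outside it. It also counted the groups unequally, since 11 members reached 25 counts only with the responders included and 3 of these only with responder 1.

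The members are not all snoRNAs of the table. Of 157 rows annotated as snoRNA with at least 25 counts, 68 were members and 89 have other names, mostly predicted genes. The members held 32.01% of the counts in rows annotated as snoRNA. The 10 rows named Rnu3, near-identical copies of the C/D RNA U3 of rRNA precursor cleavage, held 27.34%.

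Total counts per tumour ran from 8.76 to 34.3 M. Protein-coding genes took 82.9 to 89.2% of the counts in the 17 tumours of the other 3 groups but 23.8 to 87.0% in responders (median 68.8%). Responder 1 was lowest at 23.8%, and responder 5, at 87.0%, was the one responder inside the range of the other groups. The counts outside protein-coding genes went mainly to the 7SL rows Rn7s1 and Rn7s2 (the RNA of the signal recognition particle), which took 47.0% in responder 1, 5.09% in responder 5 and at most 6.05% in any tumour of the other groups. Mitochondrial rRNA took 1.15 to 14.3% in responders (median 4.36%) and 1.31 to 7.28% in stable tumours (2.13%), all above the highest non-responder (1.06%) and control (0.966%). Long intergenic RNAs took 1.76 to 10.6% in responders (median 8.75%) and 1.46 to 3.51% in the other groups. Summed melanocytic markers, 8 genes of the pigment lineage, were 303 to 725 scaled CPM in responders, 227 to 504 in stable tumours, 725 to 14050 in non-responders and 10675 to 17497 in controls. Of these markers, Tyr, Slc45a2 and Mlana were at 0 in 1 tumour, a responder. Summed T cell markers were 82.3 to 238 scaled CPM in responders, 137 to 209 in stable tumours, 21.8 to 187 in non-responders and 8.35 to 25.6 in controls. Summed macrophage markers were 811 to 2500 in responders and 465 to 2826 in the other tumours, fibroblast markers 6942 to 15873 and 3301 to 15293, keratinocyte markers 1.53 to 1795 and 9.55 to 995, and skeletal muscle markers 26.2 to 544 and 47.7 to 1056. The part of these differences in the snoRNA results was not tested, and in bulk tumours fewer cells of a type and less RNA per cell cannot be told apart. Libraries are numbered group by group in the labels, so processing order cannot be told apart from group.

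The H/ACA class as a whole took 0.0379 to 0.109% of all counts in responders (median 0.0761%), 0.00610 to 0.0445% in stable tumours (0.0274%), 0.0253 to 0.0620% in non-responders (0.0524%) and 0.0434 to 0.0520% in controls (0.0502%). These ranges overlapped. The responder median was 1.45 times the non-responder median and 2.78 times the stable median, and the stable median was 0.523 of the non-responder median. The C/D class took 0.0152 to 0.105% in responders (median 0.0556%), 0.00186 to 0.0480% in stable tumours (0.0145%), 0.00754 to 0.0236% in non-responders (0.0141%) and 0.0121 to 0.0153% in controls (0.0124%). The C/D responder median was 3.95 times that of non-responders and 3.84 times that of stable tumours, and only responder 5 lay inside the control range. No test was made on these sums, because the members were chosen on the same counts.

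Against protein-coding counts the gaps between responders and the other groups were wider. Every responder but responder 5 had a lower protein-coding share than all other tumours, so this denominator by itself widens the gaps. H/ACA members summed to 4578 counts per M protein-coding counts in responder 1, 436 to 1479 in the other 7 responders, 286 to 748 in non-responders, 70.7 to 526 in stable tumours and 491 to 597 in controls. C/D members summed to 4419 in responder 1, 174 to 1255 in the other responders, 85.4 to 285 in non-responders, 21.6 to 538 in stable tumours and 137 to 177 in controls. The responder median over the non-responder median was 1.86 for H/ACA and 5.15 for C/D members. Responder 1 combined the lowest protein-coding share with the highest level of both classes, and responder 5, whose protein-coding share was like that of the other groups, had class levels of 436 (H/ACA) and 174 (C/D). Stable 5 was lowest for both classes at a protein-coding share of 86.2%, a share within the range of the other groups.

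**Figure D1:**
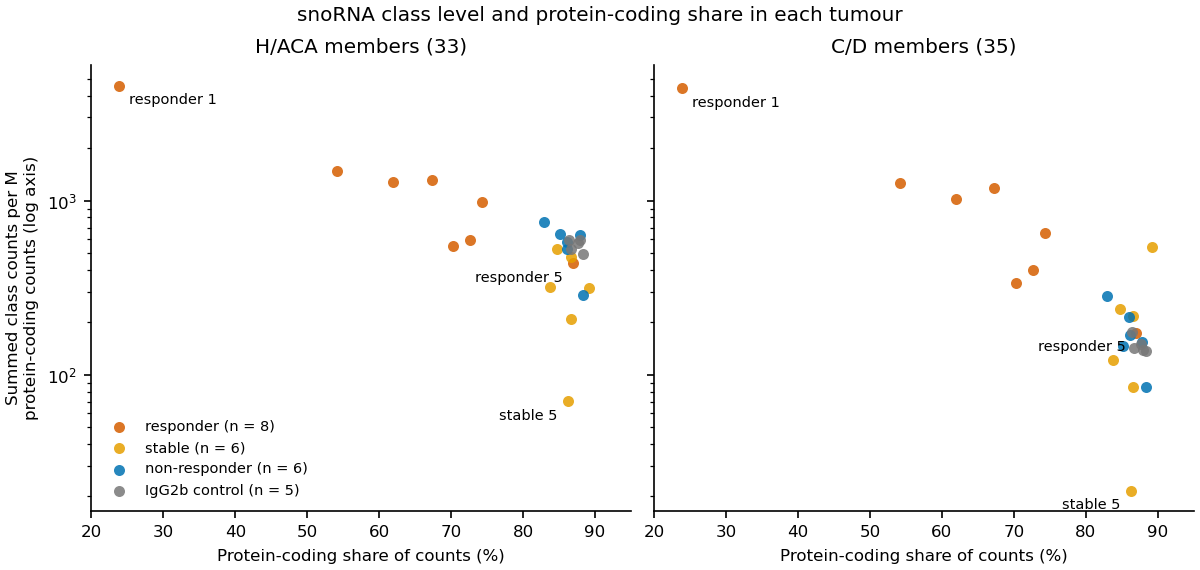
Summed counts of the 33 H/ACA members (left) and 35 C/D members (right) per M protein-coding counts, on a log axis, against the protein-coding share of counts in percent, with 1 point per tumour coloured by group. Responder 1 stands alone at 23.8% and the highest level of both classes, 6 responders lie between 54.2 and 74.3%, and responder 5 lies among the other groups at 87.0%.

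The 2 classes did not keep a fixed ratio. Summed C/D counts were 0.400 to 0.965 of summed H/ACA counts in responders (median 0.739), 0.227 to 0.408 in non-responders (0.295), 0.234 to 0.296 in controls (0.270) and 0.306 to 1.71 in stable tumours (0.429). All responders but responder 5 were above every non-responder in this ratio. Snord17 alone held 65.41% of all C/D counts, and Snora73a, Snora73b and Snora74a held 85.23% of all H/ACA counts, so each class sum follows few members. The 3 H/ACA members took 67.3 to 88.3% of class counts in responders, 84.7 to 90.2% in non-responders and 89.0 to 90.6% in controls, while stable tumours ranged from 83.6 to 92.3%. Per length, the highest medians over the 25 tumours were those of Snora73a (777 scaled CPM per kb), Snora73b (602), Snora74a (519), Snord17 (403), Snord15b (193) and Snora78 (130).

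Of the 68 members, 47 passed the filter on low counts and were tested (29 H/ACA and 18 C/D) and 21 were not. In responders against non-responders, 23 of the 29 tested H/ACA members and 12 of the 18 tested C/D members were higher at an adjusted p under 0.05 in edgeR's quasi-likelihood test, and 0 were lower. Over all 18031 genes tested, 25.2% were higher and 23.8% lower. The median log2 fold change was 2.46 for H/ACA and 2.12 for C/D members tested, against 0.05 for all genes. A member that passed the filter only through the responders had to be higher there, so these counts only describe the members that passed. This was so for 14 of the 47, and those named below (Snora3, Snora24, Snora33, Snora47, Snora64, Snora81, Snord16a, Snord33 and Snord118) are given without a p for responders, though they stay in the counts of calls. Of the 33 tested members that reach the same level in the other 3 groups alone, 14 of 19 H/ACA and 9 of 14 C/D members were higher, with medians of 2.32 and 2.12. Without responder 1, 16 H/ACA and 12 C/D members were higher, with medians of 1.62 and 1.48, where 23.7% of all genes were higher.

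**Figure D2:**
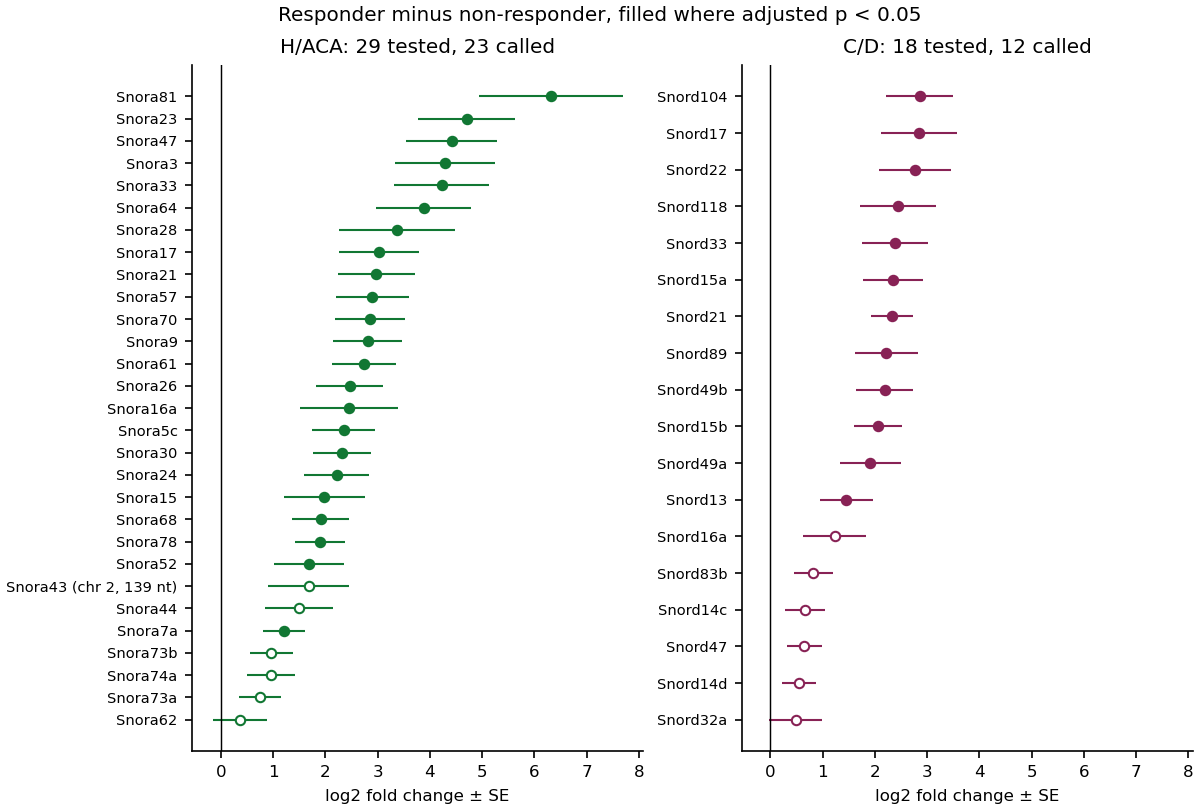
The log2 fold change between responders and non-responders for each tested member, with 29 H/ACA members on the left and 18 C/D members on the right. Bars are standard errors and filled points are those with an adjusted p under 0.05. All 47 estimates lie above 0, and the open points include the most abundant H/ACA members Snora73a, Snora73b and Snora74a.

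Snora73a and Snora73b, copies of the H/ACA RNA U17 that acts in cleavage of the small-subunit rRNA precursor, were the most abundant members per length and gave small estimates against non-responders. Levels are given as scaled CPM, counts per M counts of the TMM-scaled library. Snora73b was at 96.4, 202 and 799 in responders (lowest, median and highest tumour), 15.7, 79.6 and 132 in stable tumours and 68.5, 138 and 154 in non-responders, and at 142, 118, 116, 124 and 104 in controls 1 to 5. Responder 1 was far above all others and stable 5 far below, and the groups overlapped. Its log2 fold change was 0.97 ± 0.41 (SE) against non-responders (adjusted p = 0.0548) and 1.64 ± 0.42 against stable tumours (adjusted p = 0.00655). Snora73a gave 0.75 ± 0.40 against non-responders (adjusted p = 0.120). Snora74a, the U19 RNA of large-subunit rRNA, was at 47.1, 212 and 445 in responders and 28.8, 119 and 145 in non-responders, with a log2 fold change of 0.96 ± 0.45 (adjusted p = 0.0819).

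Snora78 and Snora7a are H/ACA members of medium abundance. Snora78 was at 16.7, 39.0 and 214 in responders, 2.82, 15.8 and 19.3 in stable tumours and 10.4, 15.9 and 20.0 in non-responders, and at 15.7, 9.98, 10.7, 13.1 and 9.46 in the 5 controls. Every responder was above every control, and 7 of 8 were above every other tumour, the exception being responder 5. The log2 fold change was 1.90 ± 0.48 against non-responders (adjusted p = 0.00315) and 2.30 ± 0.53 against controls (adjusted p = 0.000606). Snora7a, in Rpl32, was at 8.68, 24.1 and 69.4 in responders, 1.02, 5.53 and 7.77 in stable tumours and 4.93, 12.2 and 14.5 in non-responders, and at 13.4, 13.6, 10.6, 15.1 and 10.8 in controls. Stable tumours lay wholly below both responders and controls. Snora7a rose by a log2 fold change of 1.21 ± 0.40 against non-responders (adjusted p = 0.0168) and 2.40 ± 0.43 against stable tumours (adjusted p = 0.00176). Without responder 1 the first became 0.86 (adjusted p = 0.0513). For Snora78 the value against non-responders became 1.23 without responder 1 (adjusted p = 0.00707).

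The widest H/ACA differences were in members at low levels outside the responders. Snora23, in an intron of Ipo7, was at 0.359, 7.76 and 71.6 in responders, 0.0957, 0.437 and 1.34 in stable tumours and 0.153, 0.344 and 1.62 in non-responders, and at 0.233, 1.03, 0.586, 0.657 and 0.982 in controls. All responders except 5 and 6 were above every other tumour. Snora23 gave a log2 fold change of 4.71 ± 0.93 against non-responders (adjusted p = 0.000454). Snora81, in Eif4a2, was at 0.0974, 4.75 and 125 in responders and 0, 0 and 1.06 in non-responders, with a log2 fold change of 6.31 ± 1.38. The 6 stable tumours held 2 counts of Snora81 and the 5 controls 3 counts, so the difference is given as a ratio of responder mean CPM to pooled CPM: 1186 against stable tumours (95% counting interval 328 to 9791) and 949 against controls (325 to 4603). These intervals cover counting error only. Without responder 1, at 125, the ratios were 326 and 261. Snora64, in Rps2, gave 3.88 ± 0.90 against non-responders. Snora52, in Rplp2, gave 1.68 ± 0.67 (adjusted p = 0.0406), which became 0.81 without responder 1 (adjusted p = 0.222) and -0.33 with the protein-coding share as covariate.

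A few members were picked after their values were seen. Snora33, in Rps12, was at 0.0566, 1.22 and 5.97 in responders and at most 0.201 in any other tumour, with a log2 fold change of 4.23 ± 0.91 against non-responders. Snora30, in an intron of Srcap, was the 1 tested member with every responder above every non-responder, which held for 2.08% of all genes tested. As 1 of the 47 tested members is near that share, Snora30 is only described here. It was at 0.763, 1.74 and 8.70 in responders, 0, 0.427 and 0.652 in stable tumours, 0.345, 0.520 and 0.665 in non-responders and 0.433, 0.552, 0.586, 0.684 and 0.414 in controls. All 8 responders were above all 17 other tumours. Its log2 fold change was 2.32 ± 0.55 against non-responders (adjusted p = 0.00191).

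**Figure D3:**
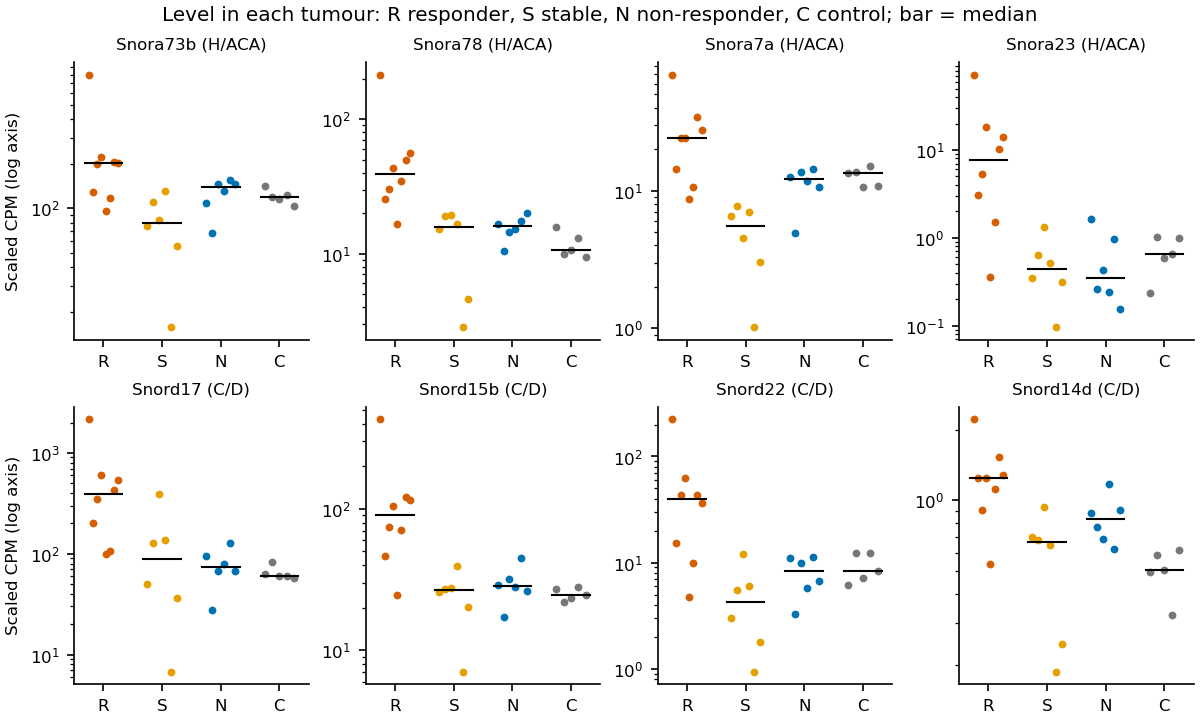
Scaled CPM of 4 H/ACA members (top) and 4 C/D members (bottom) in each tumour, on log axes, with a bar at each group median. Points within a group run from replicate 1 on the left. Responder 1 is the highest point in every panel, and stable 5 is the lowest, for example at 6.80 for Snord17 and 0.0957 for Snora23.

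Snord17, a long C/D RNA assigned to large-subunit rRNA methylation, held most of the C/D counts. Its estimates for responders against non-responders and controls were larger than those of Snora73a and Snora73b. Against stable tumours its adjusted p in edgeR's test was larger than theirs. Snord17 was at 99.9, 392 and 2161 scaled CPM in responders, 6.80, 89.0 and 392 in stable tumours and 27.9, 73.7 and 128 in non-responders, and at 62.8, 82.5, 60.6, 60.1 and 57.7 in controls. Every responder was above every control, 6 of 8 were above every non-responder, and stable 3 reached 392. The log2 fold change was 2.85 ± 0.73 against non-responders (adjusted p = 0.00324), 2.166 ± 0.70 against stable tumours (adjusted p = 0.0200) and 3.12 ± 0.79 against controls (adjusted p = 0.00162). Without responder 1 the value against stable tumours was 1.43 (adjusted p = 0.0694). Counts of Snord17 over those of Snora73a and Snora73b together were 0.437 to 1.27 in responders, 0.181 to 0.375 in non-responders and 0.187 to 0.284 in controls. Stable 3 stood at 2.32 in this ratio, and the other stable tumours at 0.154 to 0.506.

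The neighbouring members Snord15a and Snord15b lie in Rps3. Snord15b was at 24.5, 89.8 and 432 in responders, 7.07, 26.5 and 39.2 in stable tumours and 17.1, 28.4 and 45.0 in non-responders, and at 27.1, 22.03, 23.5, 28.03 and 24.5 in controls. All responders except responder 5 were above all 17 other tumours. Snord15b rose by a log2 fold change of 2.06 ± 0.46 and Snord15a by 2.34 ± 0.57 against non-responders (adjusted p = 0.00120 and 0.00235). Without responder 1, Snord15a gave 1.51 (adjusted p = 0.00540). Snord21, in Rpl5, had the smallest adjusted p of the members against non-responders and is named after its values were seen. It was at 1.92, 6.64 and 24.3 in responders, 0.563, 1.63 and 1.89 in stable tumours, 1.15, 1.40 and 2.497 in non-responders and 1.79, 2.60, 1.82, 2.40 and 2.01 in controls. Its log2 fold change against non-responders was 2.33 ± 0.40 (adjusted p = 0.000158). Snord104, which has no annotated host on its strand, gave 2.86 ± 0.64 (adjusted p = 0.00121).

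Among C/D members that act in rRNA precursor cleavage or other roles, Snord22 (U22) was at 4.74, 39.8 and 225 in responders, 0.940, 4.26 and 12.1 in stable tumours and 3.29, 8.35 and 11.3 in non-responders, and at 6.17, 12.3, 7.17, 12.3 and 8.34 in controls. Responder 5 (4.74) lay within the non-responder range and 6 of 8 responders were above all other tumours. Snord22 rose by 2.77 ± 0.68 on the log2 scale against non-responders (adjusted p = 0.00249) and by 3.47 ± 0.71 against stable tumours (adjusted p = 0.00235). Snord118 (U8), which acts in the cleavage of the large-subunit precursor, was at 0.0898, 1.16 and 2.45 in responders, 0, 0.0974 and 0.724 in stable tumours and 0.0432, 0.211 and 0.333 in non-responders, and at 0.366, 0.442, 0.430, 0.274 and 0.517 in controls. Its log2 fold change was 2.45 ± 0.73 against non-responders and 1.41 ± 0.72 against controls. Snord13 (U13), which guides acetylation of small-subunit rRNA, was at 1.89, 6.36 and 41.5 in responders and 2.30, 3.67 and 5.19 in non-responders, with 5 of 8 responders above all other tumours. Its log2 fold change against non-responders was 1.45 ± 0.51 (adjusted p = 0.0220). It became 0.67 without responder 1 (adjusted p = 0.123) and -0.41 with the protein-coding share as covariate.

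Snord14c and Snord14d (U14), which act in small-subunit rRNA processing, gave small estimates between responders and non-responders. Snord14d was at 0.534, 1.24 and 2.21 in responders, 0.187, 0.663 and 0.940 in stable tumours and 0.621, 0.830 and 1.17 in non-responders, and at 0.497, 0.586, 0.505, 0.326 and 0.616 in controls. Its log2 fold change was 0.55 ± 0.32 against non-responders (adjusted p = 0.158) but 1.28 ± 0.35 against controls (adjusted p = 0.00280). Snord14c gave 0.66 ± 0.38 against non-responders (adjusted p = 0.153). Snord47, from the non-coding gene Gas5, gave 0.65 ± 0.34 (adjusted p = 0.111). Of the Rpl13a set, known from the response to lipid stress, Snord32a gave 0.49 ± 0.51 (adjusted p = 0.431). Snord33 of the same host gave 2.38 ± 0.63 in the counts but -0.59 in the deposited RPKM table on the log2(RPKM + 1) scale, so its direction is uncertain.

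Against stable tumours, all 29 tested H/ACA members and 17 of 18 C/D members were higher in responders, where 20.5% of all genes were higher and 17.8% lower. The median log2 fold change was 3.36 for H/ACA and 2.37 for C/D members, against 0.01 for all genes. The 1 member not past the test was Snord83b, in Rpl3, at 0.80 ± 0.37 (adjusted p = 0.0873). The 33 members that reach the filter level in the other groups alone gave 32 higher. Snora3, in Rpl27a, had 1 count in all 6 stable tumours and 79 in responders, a ratio of mean to pooled CPM of 127 (counting interval 22.8 to 5013), and 61.6 without responder 1. Levels did not overlap between responders and stable tumours for 6 members: Snora81, Snora3, Snora7a, Snora26, Snora30 and Snord21. Over all genes tested, 0.427% had every responder above every stable tumour. Snora81 and Snora3 passed the filter only through the responders, so their place among the 6 only describes them. Without stable 5 and stable 6, the 2 libraries with the lowest share of both classes, 27 H/ACA and 10 C/D members were higher, against 15.6% of all genes. Without responder 1, 25 and 15 were, against 19.1% of all genes.

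Against controls, 23 H/ACA and 14 C/D members were higher in responders and 0 lower, where 36.1% of all genes were higher and 28.9% lower. The medians were 2.61 and 1.68, against 0.16 for all genes. Of the members that reach the filter level in the other groups alone, 15 of 19 H/ACA and 12 of 14 C/D members were higher, with medians of 2.30 and 1.97. Without responder 1, 15 H/ACA and 11 C/D members were higher, against 35.6% of all genes. Every responder was above every control for 3 of the 47 members, Snord17, Snora78 and Snora30, against 14.9% of all genes tested. Snord16a, in Rpl4, gave a value near 0 (0.03 ± 0.60), and Snora62, in Rpsa, gave 0.36 ± 0.54 (adjusted p = 0.572). The 3 comparisons of responders share the same 8 tumours, so they are not independent of each other.

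Between stable tumours and non-responders, 0 tested members were called with edgeR's quasi-likelihood test, where 7.08% of all genes were higher and 7.86% lower. An unadjusted p under 0.05 was found for 4 H/ACA and 0 C/D members. DESeq2 called 1 H/ACA member lower and 0 C/D members, where it had 9.37% of all genes higher and 10.2% lower. The medians were -0.78 for H/ACA and -0.54 for C/D members, and 43 of the 47 estimates were negative. Against controls, 2 H/ACA members and 1 C/D member fell in stable tumours, where 22.2% of all genes were higher and 19.6% lower. These were Snora7a (-1.35 ± 0.44, adjusted p = 0.0170), Snora24 (-2.10 ± 0.72, adjusted p = 0.0208) and Snord16a (-1.88 ± 0.66, adjusted p = 0.0253), the latter pair named after their values were seen. Snora24 and Snord16a passed the filter only through the responders. With stable 5 and stable 6 left out, 0 members were called by edgeR against controls, with 2 H/ACA and 3 C/D members at an unadjusted p under 0.05, where 20.1% of all genes were higher and 17.4% lower. Stable 5 was the lowest of the 25 tumours in 41 of the 47 tested members and stable 6 in 13, ties included. The share of all genes was not counted for this, so it only describes the members. Non-responders and controls gave 0 called members by edgeR, 0 at an unadjusted p under 0.05 and 0 by DESeq2. Of all genes, 10.6% were higher and 3.29% lower by edgeR, and 12.1% and 5.97% by DESeq2. The medians were 0.06 and 0.14.

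**Figure D4:**
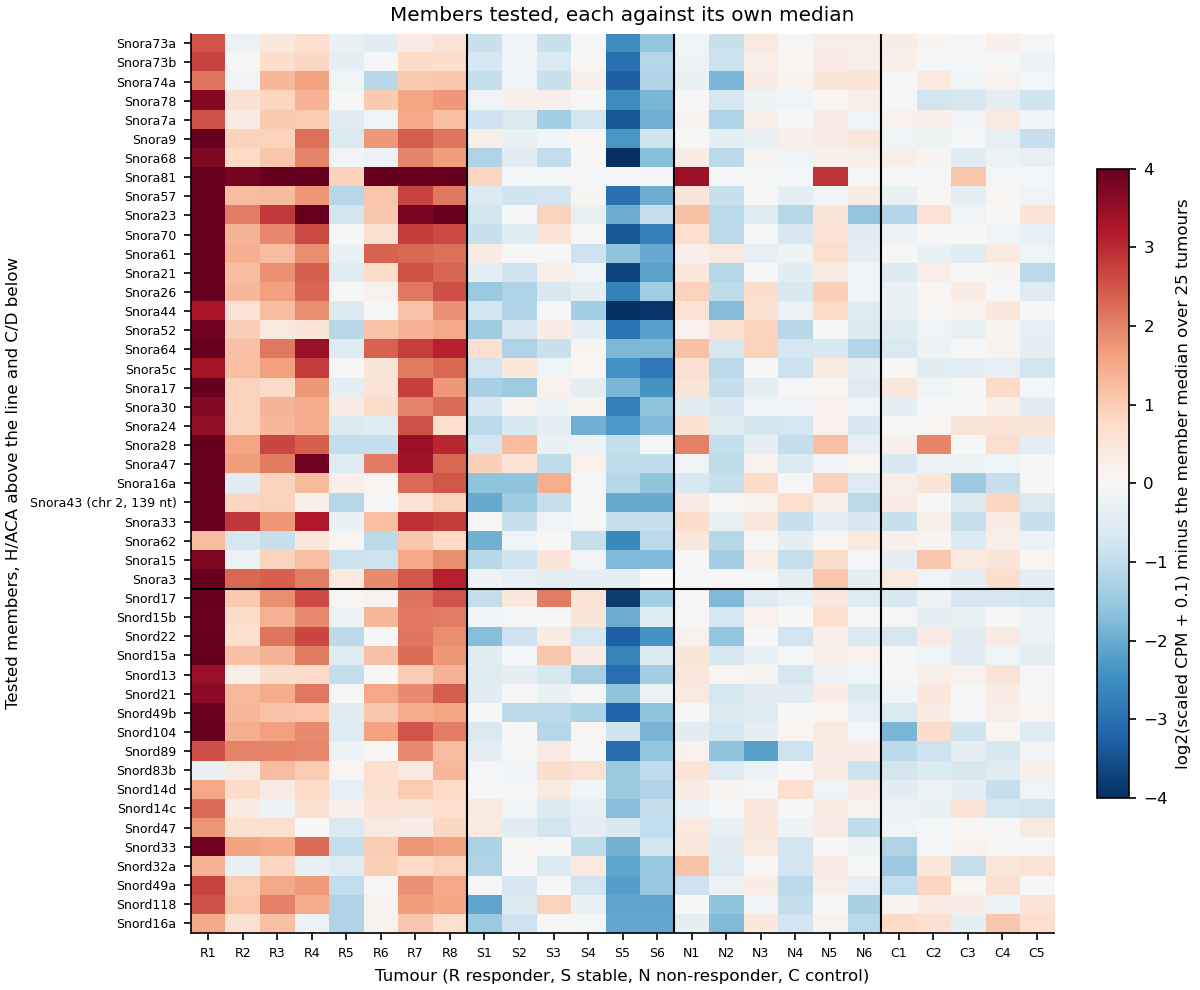
Each tested member (29 H/ACA above the line, 18 C/D below, by mean level) in each of the 25 tumours, as log2 of scaled CPM plus 0.1 minus the median of that member, with colours ending at 4 in either direction. Responder 1 is the darkest red column, responder 5 is near the median for most members, and stable 5 is the darkest blue column.

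Single tumours shaped these comparisons. Responder 1 was the highest of 25 tumours in 46 of the 47 tested members and in 60 of all 68. The exception among those tested was Snord83b, highest in responder 8. Responder 5 lay within the range of the non-responders in 39 of the 47 members, above it in 1 (Snora30) and below it in 7. Of all 68 members, 2 had their highest level in a non-responder, Snord14e and Snord35a, and 0 in a stable tumour or control. The share of all genes was not counted for these places of single tumours. Some members were included only through the responders, so such counts only describe the members. In 18 of the 47, at least 7 responders were above every non-responder, which held for 10.4% of all genes tested. The 18 include members that passed the filter only through the responders, such as Snord33 and Snord118, so this count only describes the members.

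When the protein-coding share of each library was added to the fit as a covariate, 0 H/ACA members and 1 C/D member (Snord21, 1.00 ± 0.32, adjusted p = 0.0498) were higher in responders than in non-responders, where 5.08% of all genes were higher. The medians became 0.28 and 0.59, and 4 H/ACA and 2 C/D members had an unadjusted p under 0.05. Against stable tumours 0 members were called, with 12 H/ACA and 4 C/D members at an unadjusted p under 0.05. Of the 18031 genes, 0 were called higher there, and those called lower were not counted. Against controls 2 H/ACA members (Snora81 and Snora33) and 1 C/D member (Snord83b) were called, where 25.9% of all genes were higher. With the log2 of that share, 4 H/ACA members (Snora23, Snora3, Snora33 and Snora47) and Snord21 were higher than in non-responders, where 13.6% of all genes were higher. Of the members named here, Snora3, Snora33, Snora47 and Snora81 passed the filter only through the responders, so their calls only describe them. The protein-coding share itself was lower in 7 of 8 responders than in all other tumours, so that group and share cannot be told apart in most of the responders.

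Of the 68 members, 61 lie in an annotated host gene on the same strand, 40 in a protein-coding host and 21 in another, with 47 distinct hosts in all. Ribosomal protein genes host 21 members. For 36 members the annotated interval overlaps an exon of the host, where reads of the host and of the snoRNA cannot be told apart from the table. Of the 47 hosts tested in responders against non-responders, 3 were higher and 24 lower, with a median log2 fold change of -0.36. Over all genes in that fit, 25.2% were higher and 23.8% lower. With library totals in place of TMM, 1 host was higher and 30 were lower, where 8.56% of all genes were higher and 29.8% lower. When the protein-coding share entered as a covariate, 1 host was higher and 1 lower, where 5.08% of all genes were higher and 4.96% lower. With its log2, 1 host was higher and 9 were lower, where 13.6% of all genes were higher. The share of all genes lower in that last fit was not counted, so the 9 only describe the hosts. In 40 of 41 pairs of a tested member and its host, the member's estimate was above that of the host, by a median of 2.52. Of the 30 members called higher in such pairs, 14 lay in a host that was lower, 2 in a host that was higher and 14 in a host not called. The pairs include members that passed the filter only through the responders, such as Snora81. Every tested member had an estimate above 0 and the median host was below 0, so these pair counts only describe the members.

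Rpl32, the host of Snora7a, fell by 1.17 ± 0.23 on the log2 scale (adjusted p = 0.000437), where Snora7a gave 1.21. With edgeR on library totals Snora7a gave 0.68 (adjusted p = 0.0970), and with the protein-coding share as covariate 0.051 (adjusted p = 0.951). Rps3, the host of Snord15a and Snord15b, gave -0.70 ± 0.19 (adjusted p = 0.00445), and Ipo7, the host of Snora23, -0.41 ± 0.14 (adjusted p = 0.0201). Eif4a2, an RNA helicase gene and the host of Snora81, gave 0.33 ± 0.13 (adjusted p = 0.0347). Snhg1, the host of Snord22, gave -0.36 ± 0.15 (adjusted p = 0.0472). The 1 pair in which the host exceeded its member was Gm15832 and Snord89, at 2.42 ± 0.31 and 2.22 ± 0.60.

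**Figure D5:**
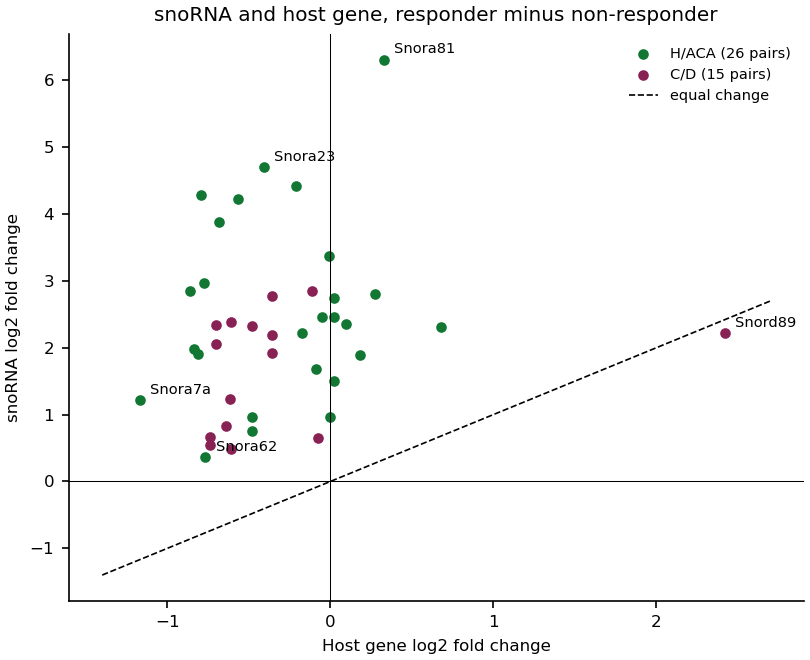
The log2 fold change of each tested member against that of its host gene, responders against non-responders, with 26 H/ACA and 15 C/D pairs. The dashed line marks equal change, and 40 of the 41 points lie above it, most of them with a host value under 0. Members that passed the filter only through the responders are included.

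The genes of the proteins that bind snoRNAs were taken as lists of core proteins, assembly factors and non-coding hosts. Of the 4 C/D core protein genes, 3 fell and 0 rose in responders against non-responders: Fbl, the methyltransferase (-0.66 ± 0.14, adjusted p = 0.000708), Nop58 (-0.67 ± 0.14, adjusted p = 0.000712) and Snu13 (-0.84 ± 0.19, adjusted p = 0.00152). Nop56 gave -0.09 ± 0.13. Of the 4 H/ACA core protein genes, Dkc1, the pseudouridine synthase (-0.91 ± 0.16, adjusted p = 0.000175), Nhp2 (-0.95 ± 0.19, adjusted p = 0.000437) and Nop10 (-0.97 ± 0.23, adjusted p = 0.00207) fell, and Gar1 gave -0.09 ± 0.21. Against controls the same counts were found, 3 of 4 lower in each list. Of 14 assembly factor genes, 6 fell and 1 rose against non-responders. Ruvbl1 and Ruvbl2, helicase-like subunits of the assembly complex, gave -1.16 ± 0.17 and -0.88 ± 0.17 (adjusted p = 5.3e-05 and 0.000409), and Tgs1, which modifies the caps of some snoRNAs, 0.42 ± 0.13 (adjusted p = 0.0103). Of 17 non-coding host genes, 2 rose (Snhg17 and Snhg20) and 4 fell (Snhg1, Snhg3, Snhg6 and Zfas1). Over all genes, 25.2% were higher and 23.8% lower, close to the share of non-coding hosts that fell. Under library totals, without TMM, 4 C/D and 3 H/ACA core genes were lower and 0 higher, and 0 assembly factor and 0 non-coding host genes were higher. Library totals moved the median of all genes in this comparison from 0.05 to -0.26, and the medians of the tested members to 1.74 (H/ACA) and 1.44 (C/D). When the share of protein-coding counts entered as a covariate, 1 C/D and 2 H/ACA core genes and 2 assembly factor genes were lower, 0 genes of these lists were higher, and 0 non-coding hosts were called, where 5.08% of all genes were higher and 4.96% lower.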

How the data were processed

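RNA from 25 tumours was sequenced. Of the tables the authors deposited, one holds estimated counts for each gene (5.64% of its values are not whole) and the other RPKM values. Per the submitters' processing notes, bcl2fastq 2.17, Trimmomatic, STAR 2.5.1 and RSEM 1.2.22 were used with mm10. How RSEM assigned reads shared by a snoRNA and its host is not given in the sources used here, nor are the gene lengths behind the deposited RPKM values.

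Gene identifiers were matched to GENCODE M21, whose 55450 genes include every row. Expected counts were rounded and tested with edgeR 4.0.16 (R 4.3.3; robust quasi-likelihood, two-sided, Benjamini-Hochberg adjusted over 18031 genes kept by filterByExpr with a minimum count of 10, TMM factors, 4 group means). Errors of fold changes are standard errors of that fit. DESeq2 1.42.0 and limma 3.58.1 served as alternatives. The labels do not say that tumours shared an animal, and replicate numbers follow accession order. Scripts were tested on simulated data.

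Named members were, among those tested, the 5 most abundant of each class, and those with the highest and lowest changes among called members with a mean of at least 1 CPM (3 each for responders against non-responders, 1 each elsewhere). Members with textbook roles in rRNA processing, members in Gas5, Snhg1, Rpl13a and Eif4a2, core proteins, assembly factors, non-coding hosts and marker lists (melanocytic, T cell, macrophage, fibroblast, keratinocyte, skeletal muscle) were also described. The members and lists were chosen with earlier results of these data known.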

Additional observations from a re-analysis of the deposited data

Results flagged for a closer look

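Groups of 4 to 10 tumours were checked for 1 tumour far from the rest, by the gap to its nearest neighbour over the range of the group. Of 112 such checks, 28 found one, where chance gives about 1 in 20, and the checks share tumours and are not independent.

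Responder 1 stood above the other responders in most of them. Its class sums were 4578 (H/ACA) and 4419 (C/D) counts per M protein-coding counts. Among H/ACA members its scaled CPM was 916 for Snora73a, 799 for Snora73b, 214 for Snora78, 125 for Snora81, 71.6 for Snora23, 69.4 for Snora7a, 19.5 for Snora64 and 13.7 for Snora52. Among C/D members it was 2161 for Snord17, 432 for Snord15b, 225 for Snord22, 132 for Snord15a, 41.5 for Snord13, 28.1 for Snord49b, 13.6 for Snord104, 5.35 for Snord33, 3.55 for Snord14c and 2.67 for Snord47.

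Stable 3 stood above the other stable tumours in Snord17 (392 scaled CPM), in Snord118 (0.724) and in the ratio of Snord17 to Snora73 counts (2.32). Stable 1 stood above them in Snora81 (0.0900) and Snord47 (0.939). Among controls, control 2 was high in Snord17 (82.5), control 3 was high in Snora81 (0.124) and control 1 was low in Snord33 (0.0629). The Snora81 values rest on 2 counts in stable tumours and 3 in controls.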

How the results depend on the processing

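Counts of called members are given as H/ACA then C/D. They give no direction, and the share of all genes called under the same rule is given above only for some of them. Where it is not given, the counts only describe the members. With the stricter filter (9 H/ACA and 6 C/D members tested), 7 and 6 were called for responders against non-responders, 9 and 6 against stable tumours and 8 and 6 against controls, and 1 and 0 for stable tumours against controls. With the protein-coding share as covariate these were 0 and 1, 0 and 0, 2 and 1, and 7 and 3, with 3 and 1 for stable tumours against non-responders. With the log2 share, added after seeing the data, they were 4 and 1, 4 and 2, 10 and 5, 7 and 3, and 3 and 1. Library totals gave 11 C/D members for responders against stable tumours, 1 H/ACA member for stable tumours against non-responders and 3 C/D members for stable tumours against controls. Without stable 5 and stable 6, also added, 10 C/D members were called against stable tumours, and 0 and 0 for stable tumours against controls. DESeq2 gave 1 H/ACA member for stable tumours against non-responders and 2 C/D members for stable tumours against controls. With no filter that C/D count was 2. Limma on log2(RPKM + 1), added too, gave 7 and 3 for stable tumours against non-responders and 5 and 5 against controls. The cause was not tested.

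Signs turned with the protein-coding share as covariate for Snora52 (-0.33) and Snord13 (-0.41) against non-responders and for Snora73b (-0.38), Snora7a (-0.18) and Snord13 (-0.71) against controls. With the log2 share they turned for Snord13 (-0.032 against non-responders and -0.30 against controls) and Snora73b (-0.094 against controls). In the RPKM table Snord33 turned to -0.59, -0.41 and -0.48 in the 3 comparisons of responders.

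Leaving out each tumour in turn, H/ACA members called ranged from 16 to 26 (responders against non-responders), 25 to 30 (stable), 15 to 25 (controls), 0 to 2 (stable against non-responders), 2 to 5 (stable against controls) and 0 to 0. C/D members ranged from 12 to 15, 15 to 17, 11 to 15, 0 to 0, 0 to 3 and 0 to 0. Of these fits, only that without responder 1 has a share of all genes called given above. The ranges therefore only describe the members. Without responder 1, 27 of 35, 40 of 46 and 26 of 37 calls of responders were shared with those of all tumours. No paired analysis was possible because the labels give the groups no shared replicate numbers. Members at a few counts per tumour have wide standard errors.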

Other observations

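Other short non-coding RNAs of the same libraries were counted alongside. The values of snoRNAs with other names, mostly predicted genes, were higher in responders than in non-responders for 43 of 57 tested and lower for 1, with a median log2 fold change of 1.66. All 10 Rnu3 rows were higher, with a median of 3.76, and their reads cannot be divided with certainty among near-identical copies. Small Cajal body RNAs, which guide the modification of spliceosomal RNAs, were higher for 9 of 12 tested and lower for 0 (median 1.19). Spliceosomal snRNAs were higher for 15 of 36 and lower for 0 (median 1.42).

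Against stable tumours, 31 of 36 snRNAs, 12 of 12 Cajal body RNAs, 47 of 57 other snoRNAs and 6 of 10 Rnu3 rows were higher in responders. In stable tumours, 16 of 36 snRNAs and 10 of 57 other snoRNAs were lower than in controls, where 19.6% of all genes were lower. The count of other snoRNAs was near that share. Against controls, 12 of 36 snRNAs were higher in responders and 2 lower, where 36.1% of all genes were higher and 28.9% lower. Higher in that comparison were also 10 of 12 Cajal body RNAs, 40 of 57 other snoRNAs (1 lower) and 10 of 10 Rnu3 rows. These classes were chosen after values of the members were seen, and the share of all genes called in each comparison is the one given for the members.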
